A study of Mus musculus with 14 samples.

Results

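A set of 9 genes for nutrient transporters of activated T cells, Slc2a1, Slc2a3, Slc7a5, Slc3a2, Slc1a5, Slc38a1, Slc38a2, Slc7a6 and Slc43a1, were followed across 14 arrays of mouse effector CD8+ T cells. They were taken by gene symbol from a written list of glucose and amino acid transporters, and they make up 9 of the 19937 genes named on the arrays. All 9 lay above the low-signal filter and were among the 14438 genes tested. Each had 1 probe set except Slc38a1, which had 2.

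The arrays held RNA of sorted CD8+ T cells from C57BL/6J mice, taken on day 6 of infection with Listeria carrying ovalbumin (Listeria-ova). Donor cells came from fetal liver chimeras and were moved into congenically matched recipients the day before infection. OT-I names a transgenic T cell receptor that recognises an ovalbumin peptide; the labels give OTI for every group but Id2KOBimKO, whose label leaves the receptor out. Cells were sorted on KLRG1, a surface receptor that is high on short-lived effector cells and low on cells that include memory precursors. There were 5 groups: 3 arrays of KLRG1hi and 5 of KLRG1lo cells of the wild type (WT), and 2 arrays each of BimKO, Id2KO and Id2KOBimKO cells, all KLRG1lo. Id2 encodes an inhibitor of E protein transcription factors, and Bim (gene Bcl2l11) a protein that promotes cell death; the labels do not say how either gene was deleted, the age of the mice or whether arrays of a group came from separate animals. P-values therefore measure the spread between these arrays, which may be technical, and the number of arrays limits the precision.

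T cells that divide after antigen take up more glucose and amino acids than resting cells, and they place more carriers in the plasma membrane. Glucose enters through facilitators of the GLUT family. Large neutral amino acids such as leucine enter by exchange through CD98, a complex of the Slc3a2 heavy chain with a light chain such as Slc7a5, and glutamine enters through Slc1a5 and the sodium-coupled Slc38a1 and Slc38a2. Slc43a1 (LAT3) is a facilitator of branched-chain and other large neutral amino acids that needs neither sodium nor an exchange partner. Leucine and glutamine taken up this way feed the kinase complex mTORC1, and Myc is a known driver of several of these carriers in T cells.

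The label checks came first. Id2 was 9.80 ± 0.10 (SD, n = 2) in Id2KO and 9.74 ± 0.14 (SD, n = 2) in Id2KOBimKO on the log2 signal scale, against 10.93 ± 0.20 (SD, n = 5) in WT KLRG1lo. Klrg1 was higher on the KLRG1hi than on the KLRG1lo arrays of WT by 4.76 on the log2 scale (adjusted p = 7.3e-08). Bcl2l11 was 7.51 ± 0.21 (SD, n = 2) in the arrays labelled BimKO and 7.60 ± 0.19 (SD, n = 5) in WT KLRG1lo, so its signal did not mark the deletion; no source used here says where its probe set lies against the deleted part, so it does not check that label. The 2 Id2KO arrays also differed from all others in sex-linked genes: Xist was 4.73 ± 0.37 (SD, n = 2) there and 8.90 to 10.11 in the means of the other groups. Of 10 CD8 T cell markers 9 were measured, with a summed linear signal of 18600 to 27175 in KLRG1hi, 19485 to 23820 in WT KLRG1lo, 19062 to 22605 in BimKO, 24766 to 29789 in Id2KO and 23741 to 24808 in Id2KOBimKO. The spread of log2 values within an array (the interquartile range over all probe sets) ran from 2.44 to 2.87. It was 2.85 ± 0.02 (SD, n = 2) in Id2KO and 2.60 ± 0.15 (SD, n = 5) in WT KLRG1lo, which bears on the transporters as described with each group.

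Slc43a1 was the one transporter of the 9 that passed the test in any comparison. Its signal was lowest in KLRG1hi cells, intermediate in WT and BimKO KLRG1lo cells and highest in the Id2-deficient cells. It passed in 3 comparisons: lower in KLRG1hi than in KLRG1lo cells of WT, higher with Id2 loss averaged over both Bim backgrounds, and higher in Id2KOBimKO than in WT KLRG1lo cells. The test throughout was limma's moderated test on all 14 arrays, two-sided, with Benjamini-Hochberg adjustment over the 14438 genes and a threshold of 0.05. In bulk RNA, fewer cells that carry a transcript and less of it per cell cannot be told apart.

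Slc43a1 lies on chromosome 2. Because it carried the main result, its promoter window in RefSeq (build GRCm38.p6, plus strand, chr2:84840073-84840372) is printed 5′ to 3′, from 250 bases before to 50 after the start of the gene. Capitals mark each match to CANNTG, the E-box that E proteins and Myc can bind, a motif chosen after the values had been seen.

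Slc43a1: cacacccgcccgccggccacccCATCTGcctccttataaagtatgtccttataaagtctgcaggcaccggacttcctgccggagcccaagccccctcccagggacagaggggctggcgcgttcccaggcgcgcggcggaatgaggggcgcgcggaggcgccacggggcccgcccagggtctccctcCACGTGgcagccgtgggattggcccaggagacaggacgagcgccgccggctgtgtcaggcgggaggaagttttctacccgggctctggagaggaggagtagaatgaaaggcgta

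The first match, CATCTG, stood at bases 23 to 28 of the window and the second, CACGTG, at bases 187 to 192. CANNTG, which reads the same on both strands, occurred in 72.3% of the 32851 RefSeq promoter windows of this length, so its presence does not set Slc43a1 apart. CACGTG, one of its forms, occurred in 7.15% of windows. Windows were found for 5 of the 9 genes, with a pair of windows for Slc7a6. CACGTG occurred in no window of Slc2a1, Slc3a2, Slc38a2 or Slc7a6. Another E-box form, CAGGTG, occurred in 20.2% of all windows and once each in those of Slc38a2 and Slc7a6; CAGCTG (16.3% of windows) and TGATGNAAN (3.95%), the letters of a site for ATF4 and its partners, searched on both strands, occurred in none of the 5 genes' windows. A match describes letters in a window and not a bound site.

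On the log2 signal scale Slc43a1 was 5.78, 5.91 and 5.93 on the KLRG1hi arrays. It was 6.45, 6.95, 6.56, 6.49 and 6.66 on the WT KLRG1lo arrays. The highest KLRG1hi array therefore lay below the lowest KLRG1lo array. On the KLRG1hi arrays probe sets without a gene name had medians of 5.05, 5.01 and 5.16, so Slc43a1 signal was low there. KLRG1hi cells had 0.60 times the signal of KLRG1lo cells, a log2 difference of -0.74 (SE 0.15, 95% interval -1.06 to -0.43, adjusted p = 0.0227). Slc43a1 was the only 1 of the 9 genes to pass here, where 0.942% of all genes tested passed and 0.263% passed as lower. It was also the only one whose arrays did not overlap in that direction (1.77% of all genes) and the only one with an unadjusted p under 0.05 (7.2% of all genes). The call held under 12 of 17 alternatives. Those that ended it included leaving out KLRG1hi array 1 (adjusted p = 0.0560), KLRG1hi array 2 (0.121) or KLRG1lo array 5 (0.0654) and a fit on these groups alone (0.0599), while the difference stayed between -0.79 and -0.62 under all 17 alternatives. Markers of other cell types had list medians from -0.37 to -0.06 in this comparison. Of 40 such genes tested on 6 lists 0 passed in limma. Before adjustment 12 of the 40 were under 0.05, against 7.2% of all genes. Their list medians had the same sign as the Slc43a1 difference, and their part in the result was not tested.

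**Figure D1:**
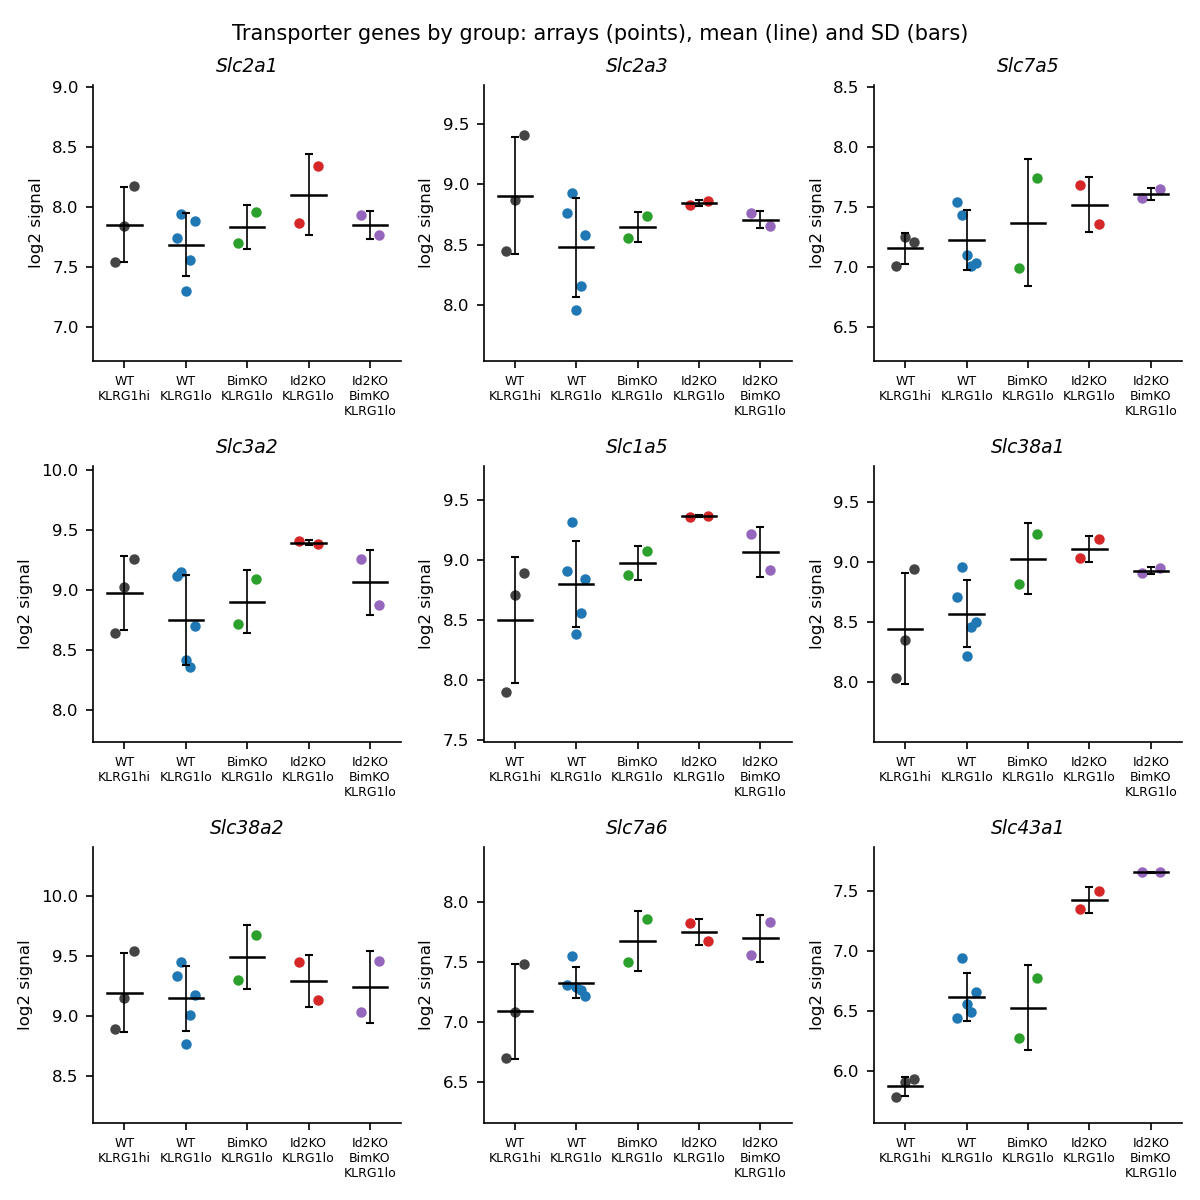
Log2 signal of the 9 transporter genes (1 panel each) on every array, by group; points are arrays, lines are group means and bars are 1 SD. Slc43a1 steps from 5.88 in WT KLRG1hi to 7.66 in Id2KOBimKO, while the points of most groups overlap for the other genes.

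Loss of Id2 went with more Slc43a1 signal on both Bim backgrounds. The Id2KO arrays read 7.35 and 7.50 and the Id2KOBimKO arrays 7.66 and 7.66. The arrays labelled BimKO read 6.28 and 6.78, the first just under the WT KLRG1lo range and the second inside it. No Id2-deficient array overlapped an array with Id2. Of all genes 14.2% had Id2KO arrays above every WT KLRG1lo array, and 17.6% had Id2KOBimKO arrays above the BimKO arrays. The share of all genes for the joint split was not counted. Averaged over both backgrounds, the Id2-deficient cells had 1.95 times the signal. The log2 difference was 0.97 (SE 0.13, 95% interval 0.68 to 1.25, adjusted p = 0.00248). This average includes the Id2KO arrays, which also differed from all others in sex-linked genes. Slc43a1 was 1 of 9 genes to pass, against 0.18% of all genes (2 of 9 and 7.11% of all genes had an unadjusted p under 0.05). It passed under all 20 alternatives with adjusted p from 0.000742 to 0.0408.

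The separate comparisons gave the same direction with less precision. Id2KO exceeded WT KLRG1lo by 0.81 (SE 0.17, 95% interval 0.44 to 1.17, adjusted p = 0.107), so 0 of 9 genes passed in limma, 5 of 9 had an unadjusted p under 0.05 (18.1% of all genes did), and 0.111% of all genes passed. Slc43a1 passed there under 1 of 16 alternatives, that without WT KLRG1lo array 2 (adjusted p = 0.0278). Id2KOBimKO exceeded BimKO by 1.13 (SE 0.21, 95% interval 0.69 to 1.56, adjusted p = 0.306), where 0.0% of all genes passed in limma. Slc43a1 was the only one of the 9 with an unadjusted p under 0.05 (262 genes in all, 1.81%) or with arrays that did not overlap as higher (17.6% of all genes). Slc43a1 passed there under 1 of 13 alternatives, that with array spread in the fit (adjusted p = 0.034). Id2KOBimKO exceeded WT KLRG1lo by 1.04, or 2.05-fold (SE 0.17, 95% interval 0.67 to 1.40, adjusted p = 0.0258), where 0.0623% of all genes passed and 3.95% had an unadjusted p under 0.05. That call held under 8 of 16 alternatives and was lost, among others, in a fit on these groups alone (adjusted p = 0.0519). With 1 array left out it held without WT KLRG1lo array 2 (0.0124) and was lost without any other: adjusted p was 0.0866, 0.0743, 0.0878 and 0.0763 without WT KLRG1lo arrays 1, 3, 4 and 5, and 0.559 and 0.628 without the Id2KOBimKO arrays 1 and 2. These comparisons share the WT KLRG1lo arrays, so they are not independent of each other.

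Slc43a1 did not pass between BimKO and WT KLRG1lo, at -0.09 (95% interval -0.46 to 0.27, adjusted p = 0.871), where 0.0% of all genes passed in limma and 998 (6.91%) had an unadjusted p under 0.05, none of them 1 of the 9. The difference between the Id2 effects on the 2 Bim backgrounds was 0.32 (95% interval -0.25 to 0.89, adjusted p = 0.726). Xist differed by -4.80 between Id2KO and WT KLRG1lo (adjusted p = 1.42e-06) and by -0.42 between Id2KOBimKO and BimKO (adjusted p = 1.00), and Slc43a1 by 0.81 and 1.13 in the same comparisons. Id2KO differed from WT KLRG1lo in the Id2 label and in the sex-linked genes at once, so these cannot be told apart in that comparison. The mean Id2 difference includes that comparison, and Xist differed by -2.61 in it (limma, adjusted p = 0.000304). The same limit therefore applies to that part of the mean. The part of the sex-linked difference in the Slc43a1 values was not tested. Red cell precursor markers, of which 6 of 10 were measured and none was at 0, summed to 273 to 301 in Id2KO, 315 to 857 in Id2KOBimKO and 298 to 750 in WT KLRG1lo. For the mean Id2 difference 0 of the 40 tested markers of other cell types passed in limma. Before adjustment 2 of them were under 0.05, against 7.11% of all genes. Their list medians lay between -0.32 and -0.05. Between Id2KO and WT KLRG1lo 0 of the 40 passed, and 11 were under 0.05 before adjustment, against 18.1% of all genes. The list medians lay between -0.54 and -0.21 there. CD8 T cell markers had medians of the opposite sign. For the mean Id2 difference their median was 0.31, and 0 of 9 passed. Before adjustment 5 of the 9 were under 0.05, against 7.11% of all genes. The Id2KO sums of these markers lay above those of all WT KLRG1lo arrays. The part of either kind of marker in the Slc43a1 result was not tested.

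**Figure D2:**
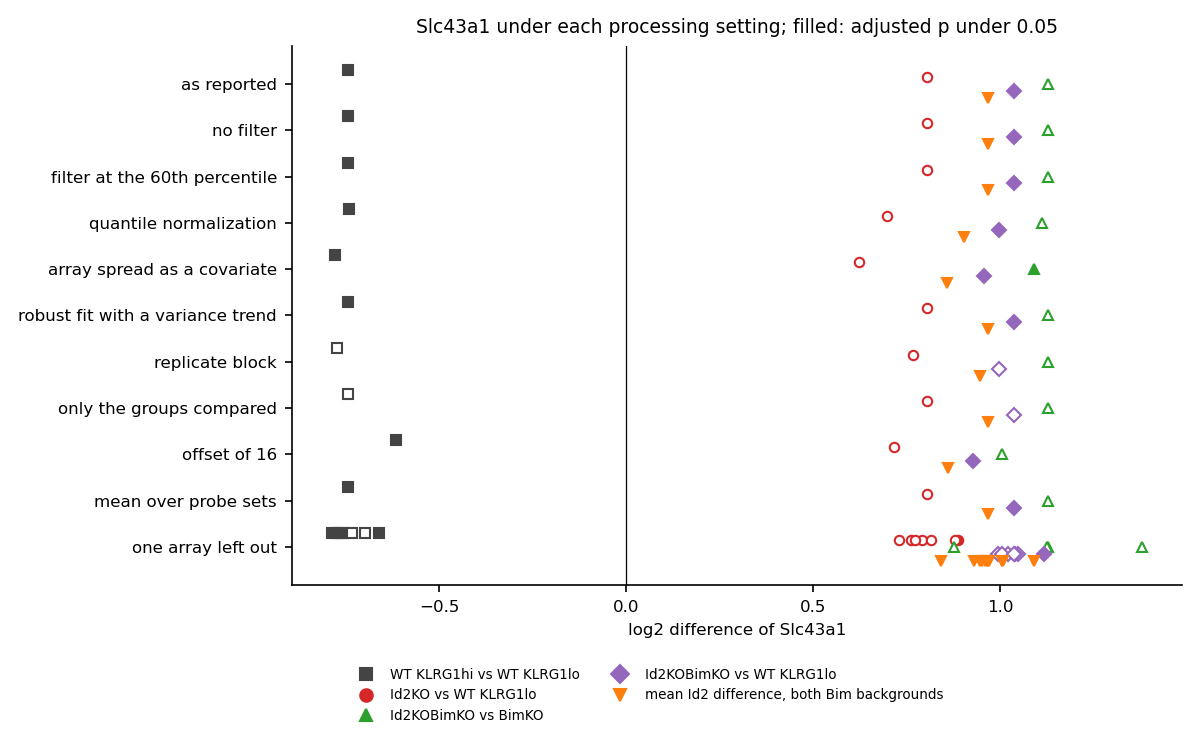
Log2 difference of Slc43a1 under the reported analysis and its alternatives, for 5 comparisons; filled points have an adjusted p under 0.05. The KLRG1hi minus KLRG1lo values stay at or below -0.62, and the mean Id2 difference stays between 0.84 and 1.09.

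The glucose facilitators did not pass in any of the 6 comparisons. Slc2a1 (GLUT1), the basal glucose carrier that T cells raise on activation, read 7.54, 7.85 and 8.17 in KLRG1hi and 7.75, 7.95, 7.30, 7.56 and 7.89 in WT KLRG1lo. It read 7.70 and 7.96 in BimKO, 7.87 and 8.34 in Id2KO and 7.93 and 7.77 in Id2KOBimKO, and every neighbouring pair of groups in the order of means overlapped. The KLRG1hi minus KLRG1lo difference was 0.17 (95% interval -0.22 to 0.55), and Id2KO minus WT KLRG1lo was 0.42 (-0.02 to 0.85).

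Slc2a3 (GLUT3), a facilitator with higher affinity for glucose, had its highest group mean in KLRG1hi cells. It read 8.44, 8.87 and 9.41 there and 8.77, 8.93, 7.95, 8.16 and 8.58 in WT KLRG1lo, ranges that overlap. The difference was 0.43 (SE 0.22, 95% interval -0.04 to 0.90, adjusted p = 0.788). BimKO read 8.56 and 8.73, Id2KO 8.83 and 8.87, and Id2KOBimKO 8.76 and 8.66. Id2KOBimKO and Id2KO were the only neighbours in the order of its means whose arrays did not overlap. Arrays of these groups did not overlap for Slc3a2, Slc1a5, Slc38a1 and Slc43a1 either, with Slc43a1 in the other direction. The share of all genes for this pair of groups was not counted.

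The CD98 complex was described by its heavy chain and the light chains among the listed genes, Slc7a5 and Slc7a6. Slc3a2, the heavy chain that carries light chains to the membrane, read 9.41 and 9.38 in Id2KO, above all 5 WT KLRG1lo arrays at 9.12, 9.15, 8.42, 8.36 and 8.70. The difference was 0.65 (SE 0.23, 95% interval 0.16 to 1.14, adjusted p = 0.275), which did not pass. It read 8.65, 9.03 and 9.26 in KLRG1hi, 8.72 and 9.09 in BimKO and 9.26 and 8.88 in Id2KOBimKO. Slc7a5 (LAT1), the leucine exchanger, read 7.01, 7.25 and 7.21 in KLRG1hi and 7.54, 7.44, 7.10, 7.01 and 7.03 in WT KLRG1lo, a difference of -0.07 (95% interval -0.45 to 0.32). It was 7.00 and 7.75 in BimKO, 7.68 and 7.36 in Id2KO and 7.57 and 7.65 in Id2KOBimKO.

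Slc7a6 (y+LAT2), a light chain that exchanges cationic for neutral amino acids, read 6.70, 7.09 and 7.48 in KLRG1hi and 7.31, 7.55, 7.30, 7.27 and 7.22 in WT KLRG1lo. It read 7.50 and 7.85 in BimKO, 7.83 and 7.67 in Id2KO and 7.56 and 7.84 in Id2KOBimKO. The Id2KO and the Id2KOBimKO arrays all lay above the 5 WT arrays, with differences of 0.42 (95% interval 0.01 to 0.83) and 0.37, and neither passed after adjustment. In the second comparison the arrays of 3 of the 9 genes, Slc43a1, Slc7a5 and Slc7a6, lay wholly above WT KLRG1lo, as did those of 5.29% of all genes.

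The glutamine carriers showed their lowest array values in KLRG1hi cells or in WT KLRG1lo arrays 3 and 4. Slc1a5 (ASCT2), the sodium-dependent exchanger of glutamine, read 7.90, 8.70 and 8.89 in KLRG1hi and 8.91, 9.31, 8.38, 8.56 and 8.84 in WT KLRG1lo. The difference was -0.30 (95% interval -0.77 to 0.16). With array spread in the fit it was -0.41 (SE 0.10, adjusted p = 0.0388), the only setting in which a second gene of the 9 passed between KLRG1hi and KLRG1lo cells. Slc1a5 read 8.87 and 9.07 in BimKO, 9.35 and 9.37 in Id2KO and 9.21 and 8.92 in Id2KOBimKO; Id2KO minus WT KLRG1lo was 0.56 (SE 0.25, 95% interval 0.03 to 1.09, adjusted p = 0.275).

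Slc38a1 (SNAT1), a sodium-coupled carrier of glutamine and alanine, read 8.04, 8.36 and 8.95 in KLRG1hi and 8.71, 8.96, 8.22, 8.46 and 8.50 in WT KLRG1lo. Its Id2KO arrays, at 9.04 and 9.19, lay above the WT KLRG1lo range, a difference of 0.54 (95% interval 0.06 to 1.02) that did not pass. BimKO read 8.82 and 9.24 and Id2KOBimKO 8.91 and 8.95. Its second probe set put the groups in a like order, with means of 7.13 in KLRG1hi, 7.61 in WT KLRG1lo and 8.02 in Id2KO. The size differed: KLRG1hi minus KLRG1lo was -0.12 on the probe set used and -0.30 for the mean over both probe sets. Neither passed. Slc38a2 (SNAT2), the relative that amino acid starvation is known to raise, read 8.89, 9.15 and 9.54 in KLRG1hi, 9.34, 9.45, 8.77, 9.01 and 9.18 in WT KLRG1lo and 9.45 and 9.14 in Id2KO. It read 9.30 and 9.68 in BimKO and 9.03 and 9.46 in Id2KOBimKO, and it differed by 0.14 (95% interval -0.31 to 0.60) between Id2KO and WT KLRG1lo.

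**Figure D3:**
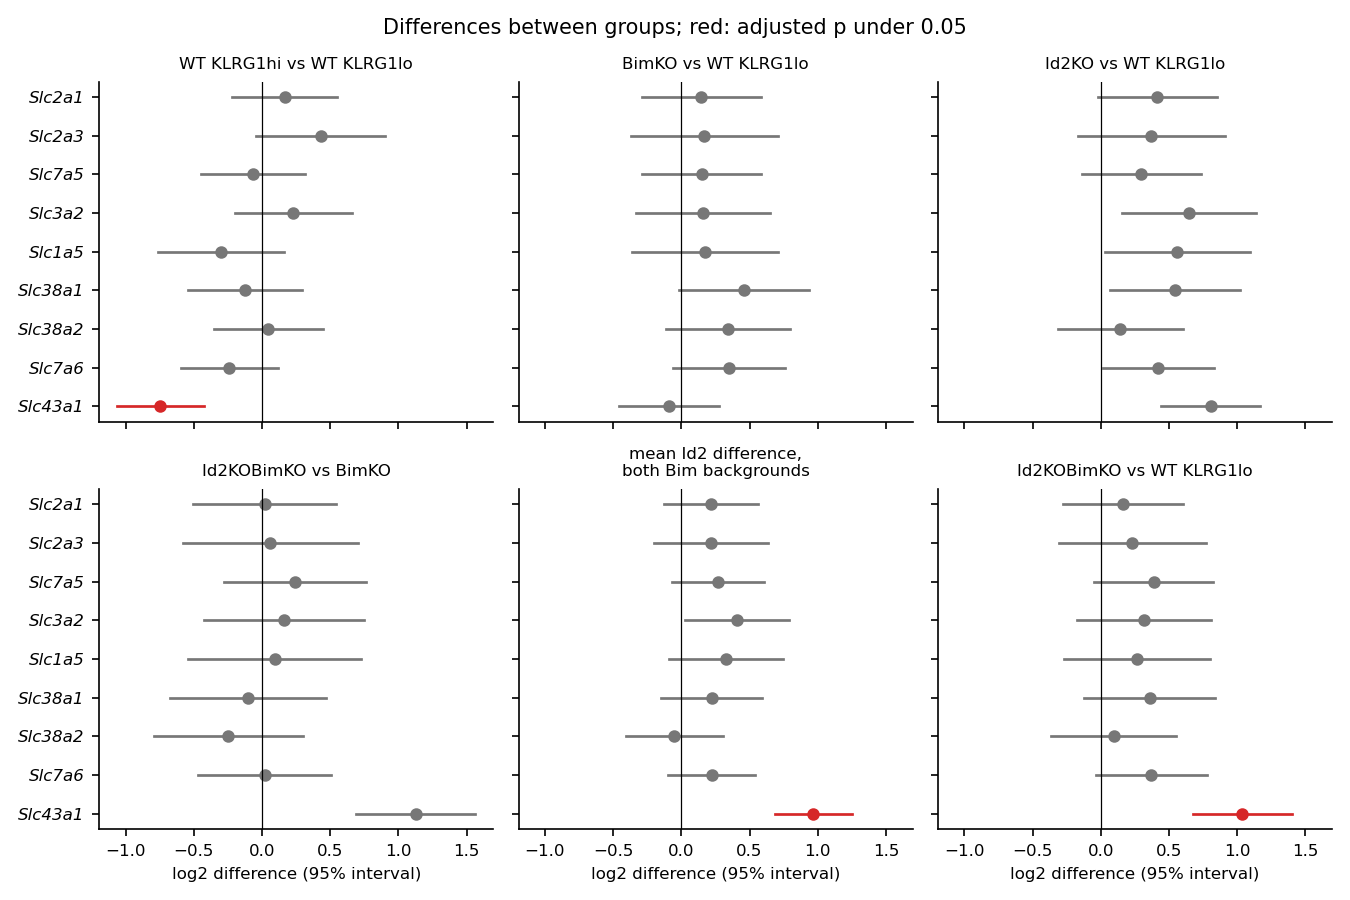
Log2 difference with its 95% interval for each of the 9 genes in 6 group comparisons; red marks an adjusted p under 0.05. Slc43a1 stands at -0.74, 0.97 and 1.04 where it passed, and no other gene is red.

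The 8 genes other than Slc43a1 were described together in each comparison. Between KLRG1hi and KLRG1lo cells 4 of 8 differences were positive, with adjusted p from 0.788 to 1.00 and none at an unadjusted p under 0.05. Between Id2KO and WT KLRG1lo all 8 were positive, from 0.14 to 0.65, where 52.2% of all genes were positive. None of the 8 passed in limma (adjusted p from 0.275 to 0.632). Before adjustment 4 were under 0.05, against 18.1% of all genes. The Id2KO arrays of 5 of the 9 genes, Slc43a1 included, lay above every WT KLRG1lo array, and 14.2% of all genes did. The median difference of the 9 genes was 0.42 there, and that of all genes tested was 0.03.

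Between Id2KOBimKO and BimKO the same 8 genes ran from -0.25 to 0.24, with 6 of 8 positive, none at an unadjusted p under 0.05, and adjusted p of 1.00. Between BimKO and WT KLRG1lo all 8 were positive, from 0.15 to 0.46 (adjusted p from 0.657 to 0.836). Between Id2KOBimKO and WT KLRG1lo all 8 were positive, from 0.09 to 0.39 (adjusted p from 0.785 to 0.872). The mean Id2 difference of the 8 ran from -0.05 to 0.41, with 7 of 8 positive. In limma 1 had an unadjusted p under 0.05 (7.11% of all genes did), Slc3a2 at 0.41 (95% interval 0.02 to 0.79, adjusted p = 0.620). Over all genes 56.7% were positive between Id2KOBimKO and BimKO and 47.3% between BimKO and WT KLRG1lo. The share was 49.8% between Id2KOBimKO and WT KLRG1lo and 52.6% for the mean Id2 difference.

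The signal of most of these 8 genes moved with the spread of the array within the WT groups. How many of all genes tested did so was not counted, so it cannot be called a trait of the transporters. Among the WT KLRG1lo arrays, the widest were arrays 1 and 2 (2.68 and 2.82) and the narrowest arrays 3 and 4 (2.46 and 2.48). Arrays 1 and 2 held the highest values of 7 of the 8 genes, and arrays 3 and 4 the lowest of 6. Among the KLRG1hi arrays, the narrowest (array 1, 2.44) held the lowest value of all 8, and the widest (array 3, 2.84) the highest of 7. Slc43a1 had the same order there, at 5.78, 5.91 and 5.93, but not among the WT KLRG1lo arrays. With the spread as a covariate the Id2KO differences of the 8 ran from -0.23 to 0.14, with 5 of 8 positive, and after quantile normalisation from -0.12 to 0.39, with 7 of 8 positive. In the same comparison Slc43a1 differed by 0.62 with the covariate (adjusted p = 0.490) and by 0.70 after quantile normalisation (adjusted p = 0.196). Between BimKO and WT KLRG1lo all 8 stayed positive under both settings, and 6 of 8 with the replicate number as a block. With the covariate 5 of 8 were positive between Id2KOBimKO and WT KLRG1lo, and 2 of 8 between Id2KOBimKO and BimKO. The mean Id2 difference was then positive for 3 of 8. After quantile normalisation these counts were 7, 5 and 7 of 8, in the same order. The 2 Id2KO arrays were among the widest, and the part of the spread in these differences was not tested.

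**Figure D4:**
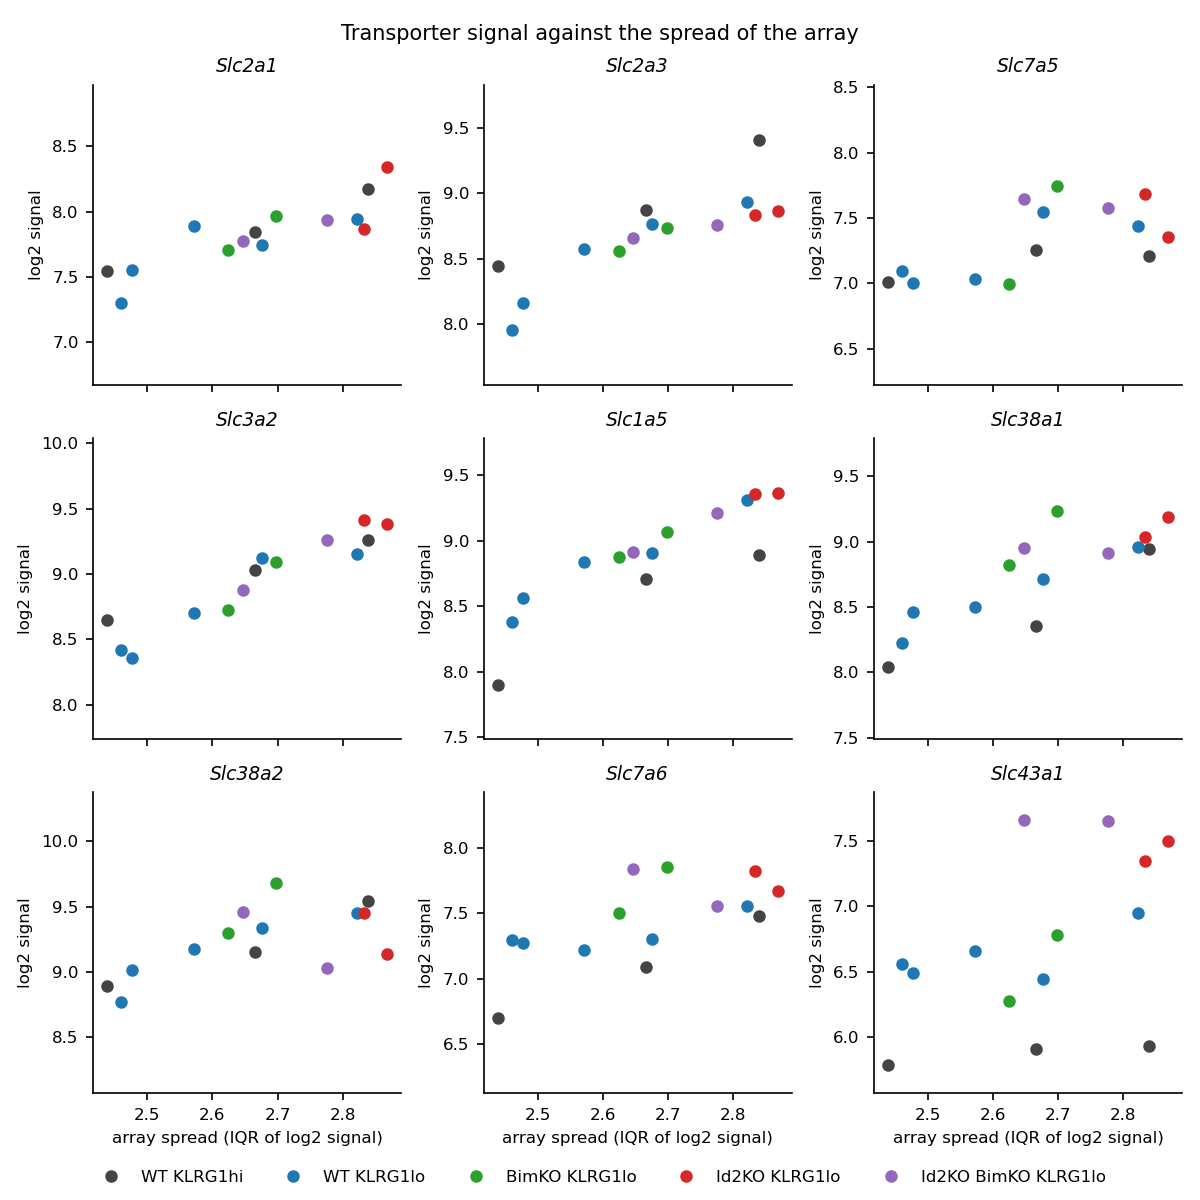
Log2 signal of each of the 9 genes against the spread of the array (interquartile range of log2 signal), with 1 point per array coloured by group. For most genes the points rise from the narrowest array (2.44) to the widest (2.87). The KLRG1hi values of Slc43a1, the lowest of the 9 genes there, ran from 5.78 to 5.93. Probe sets without a gene name had medians of 5.01 to 5.16 on those arrays. The part of low signal in this narrow range was not tested.

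Other genes of uptake and its control were read from 8 lists with 144 tested genes. Between KLRG1hi and KLRG1lo cells 2 of the 144 passed, both lower in KLRG1hi, and 12 were under 0.05 before adjustment, where 0.942% and 7.2% of all genes were. Those that passed were Myc and Pdk1. Myc was 1 of 19 on the list of regulators, and Pdk1 1 of 15 on that for glycolysis and pyruvate use. In limma 0 of the 144 passed in the other comparisons, and the counts under 0.05 before adjustment were set beside the share of all genes. They were 28 (19.4%) between Id2KO and WT KLRG1lo, where 18.1% of all genes were under 0.05, and 10 (6.94%) for the mean Id2 difference, against 7.11%. They were 8 (5.56%) between Id2KOBimKO and WT KLRG1lo, against 3.95%, 4 (2.78%) between BimKO and WT KLRG1lo, against 6.91%, and 2 (1.39%) between Id2KOBimKO and BimKO, against 1.81%.

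Myc, a transcription factor that drives growth and nutrient uptake after activation, read 5.83, 6.44 and 6.31 in KLRG1hi and 7.73, 8.16, 7.42, 7.02 and 7.22 in WT KLRG1lo. The groups did not overlap, and the difference was -1.32 (SE 0.22, adjusted p = 0.0056), past the threshold under all 17 alternatives. Myc read 8.05 and 8.43 in BimKO, 8.21 and 7.98 in Id2KO and 8.27 and 7.85 in Id2KOBimKO, and its mean Id2 difference of 0.20 did not pass. Myc and Slc43a1 thus both had their lowest values in KLRG1hi cells. BimKO minus WT KLRG1lo was 0.73 for Myc (adjusted p = 0.657) and -0.09 for Slc43a1.

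Pdk1, a kinase that holds back the entry of pyruvate into the mitochondrion, read 5.71, 5.88 and 6.86 in KLRG1hi and 7.18, 7.59, 7.47, 7.13 and 7.45 in WT KLRG1lo, again without overlap. The difference was -1.22 (SE 0.22, adjusted p = 0.00983), past the threshold under 16 of 17 alternatives; without KLRG1hi array 2 it was -1.08 (adjusted p = 0.113). It read 7.49 and 7.68 in BimKO, 7.85 and 8.41 in Id2KO and 8.18 and 8.06 in Id2KOBimKO, with a mean Id2 difference of 0.65 that did not pass (adjusted p = 0.478).

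**Figure D5:**
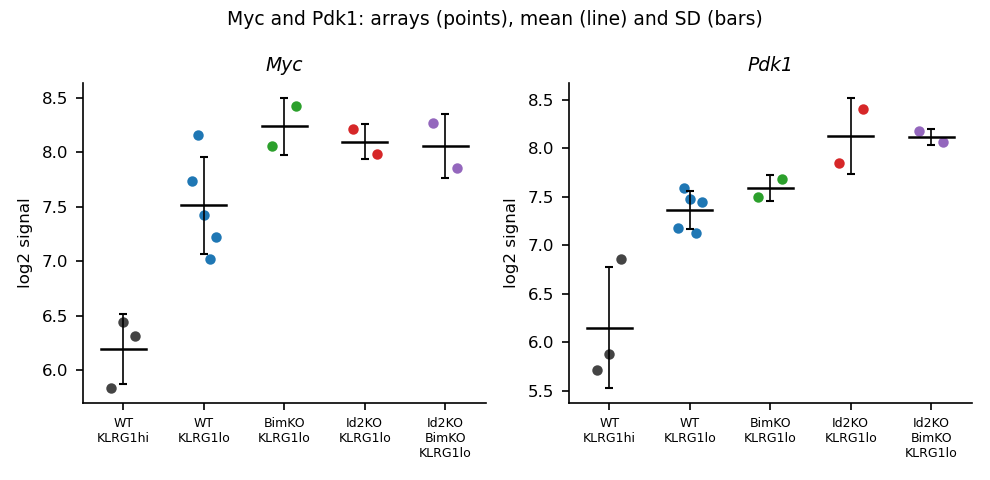
Log2 signal of Myc and Pdk1 on every array by group; lines are group means and bars are 1 SD. Both are lowest in WT KLRG1hi, and the Myc means of the KLRG1lo groups run from 7.51 in WT to 8.24 in BimKO.

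By list, the median KLRG1hi minus KLRG1lo difference lay between -0.05 and 0.07, beside 0.00165 over all genes tested. The 8 other tested glucose transporters had a median of -0.03 and the 19 other amino acid transporters -0.03. Between Id2KO and WT KLRG1lo the medians were -0.35 for the other glucose transporters (1 of 8 positive) and -0.09 for the other amino acid transporters (8 of 19 positive). They were 0.45 for genes of glutamine use (13 of 13 positive) and 0.39 for glycolysis and pyruvate use (13 of 15). Amino acid sensing by mTORC1 had 0.28 (27 of 30) and the regulators 0.25 (18 of 19). Lactate, iron and nucleoside uptake had 0.10 (10 of 15) and ATF4 targets 0.08 (15 of 25). These medians share the wider Id2KO arrays with the transporter values.

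Genes whose pattern was most like each transporter were named by the correlation of log2 signal over the 14 arrays, given as a description. Slc43a1 was closest to Ranbp10 (r = 0.98, and 0.87 for deviations from group means) and to Btla, an inhibitory receptor of lymphocytes (r = 0.93 and 0.47). Btla differed by -1.05 between KLRG1hi and KLRG1lo cells and by 0.72 with Id2 loss, and Ranbp10 by -0.23 and 0.46. Both genes were picked for their likeness to Slc43a1 on these same arrays. Differences in the same direction follow from that choice and are not a separate result. For the other 8 genes the correlation was about as high within groups as over all arrays, as for Slc2a3 with Ankrd44 (0.98 and 0.99) and Plec (0.97 and 0.97), and Slc1a5 with Dock8 (0.98 and 0.99) and Heatr1 (0.97 and 0.97).

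Slc3a2 was closest to Agpat3 (0.97) and Psmd5 (0.97), Slc38a1 to Pigb (0.98) and Slc25a3 (0.98), and Slc7a6 to Mri1 (0.96) and Huwe1 (0.95). Slc2a1 was closest to Anapc5 (0.94) and Hdhd5 (0.94), Slc7a5 to Zfp36 (0.92) and Nfatc1 (0.90), and Slc38a2 to Sos2 (0.92) and Atp10a (0.89). Among the transporters themselves the 28 pairs without Slc43a1 had r from 0.33 to 0.91, and the 8 pairs with it from 0.04 to 0.74. For deviations from group means the ranges were 0.30 to 0.93 and 0.48 to 0.62. Slc7a5 and its heavy chain Slc3a2 correlated at 0.70. All these points share the spread and labelling of the array.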

How the data were processed

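The deposited values are intensity from RMA by the authors, linear as the values show, for 34760 probe sets on 14 arrays; RMA and mm9 stand in the submitters' processing notes without versions or roles. Scale and centring against scanner values are unknown. Probe sets were named from the platform annotation: 21640 carried 1 gene, 1321 several and 11799 none, and 21553 were found in the RefSeq table. The probe set with the highest mean stood for a gene.

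Log2 values without an offset were fitted with limma 3.58.1 in R 4.3.3 as 5 group means over all arrays. A gene was tested if 2 or more arrays had its signal over their 40th percentile, and the script was tested on simulated data. Alternatives changed the filter, normalization, array spread, moderation, arrays in the fit, offset, probe sets and replicates.

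All 9 transporters are named, with Id2, Bcl2l11, Klrg1 and sex-linked genes as checks, up to 4 list genes past the test, and for each transporter the 2 genes most correlated with it (predicted and clone names passed over). The members and lists were chosen with earlier results of these data known.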

Additional observations from a re-analysis of the deposited data

Results flagged for a closer look

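Slc7a6 on WT KLRG1lo array 2 read 7.55 on the log2 signal scale. It was set apart because its gap to the next of the 5 arrays took up 0.739 of the range of the group, above the critical value of Dixon's test. The other 4 arrays read 7.22 to 7.31. Chance sets apart about 1 in 20 groups, and 9 genes were examined in this group. This array also had the widest spread of its group, at 2.82, and the part of the spread in this value was not tested.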

How the results depend on the processing

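Of the 9 transporters, the number past the test between KLRG1hi and KLRG1lo cells was 1 as reported, 2 with the array spread as a covariate, 0 with the replicate block, 0 in a fit on the groups compared, and 0 to 1 when 1 array was left out. Between Id2KO and WT KLRG1lo it was 0, with 0 to 1 on leaving out 1 array. Between Id2KOBimKO and BimKO it was 0, and 1 with the spread as a covariate. Between Id2KOBimKO and WT KLRG1lo it was 1, 0 with the replicate block, 0 in the fit on the groups compared, and 0 to 1 on leaving out 1 array. The causes of these changes were not tested. The mean Id2 difference kept 1 gene past the test, and BimKO against WT KLRG1lo kept 0, under every alternative run, and no called value changed sign.

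Over all genes tested the counts moved more. They were 136 between KLRG1hi and KLRG1lo cells (42 with the block to 376 with the spread as a covariate, 45 to 179 with 1 array left out), 16 for Id2KO against WT KLRG1lo (5 to 26, and 4 to 39), 0 for Id2KOBimKO against BimKO (0 to 4, and 0 to 3), 26 for the mean Id2 difference (8 to 52, and 13 to 31), 0 for BimKO against WT KLRG1lo (0 to 0, and 0 to 8), and 9 for Id2KOBimKO against WT KLRG1lo (0 to 24, and 0 to 13).

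With the replicate number as a block Slc43a1 differed by -0.78 between KLRG1hi and KLRG1lo (adjusted p = 0.121), 0.77 for Id2KO against WT KLRG1lo (0.569), 1.13 for Id2KOBimKO against BimKO (0.703), 0.95 for the mean Id2 difference (0.0408) and 1.00 for Id2KOBimKO against WT KLRG1lo (0.476). The numbers share no stated animal or batch. Of pairs of same-numbered arrays 10 of 21 had deviations correlated above 0.1, with a median of 0.06. Among pairs with different numbers 17 of 54 did, with a median of -0.01. Whether the numbers pair the arrays was not tested.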
